A study of Homo sapiens with 6 samples.

Results

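The genes described here are 9 that encode subunits of the Polycomb complexes, chosen by name out of 20136 protein-coding genes of GRCh37 and 19666 of GRCh38. They are EZH1, EZH2, EED and SUZ12 (core of Polycomb repressive complex PRC2), JARID2 (PRC2 accessory subunit), BMI1, RING1 and RNF2 (PRC1) and ASXL1 (PR-DUB). For each gene, the H3K27Ac and H3K4me3 peaks within the gene body and the 20 kb on either side were taken. The marks were mapped by ChIP-seq in OCI-AML3, an established human acute myeloid leukemia (AML) line that carries mutant NPM1 (mtNPM1) beside mutations of DNMT3A and NRAS. Cells had been transfected with the control guide RNA sgNeg or with sgNpm1A, a guide RNA against mtNPM1, and cultured for 3 days per the labels, while the text of the study gives a longer time for these experiments. Each guide and mark had 1 library, so there were 4 peak lists and no replicate, and no p-value is given. The 2 input samples were not analysed here. A peak list holds no edited sequence, so loss of mtNPM1 was not checked from these data.

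PRC2 is the complex that methylates K27 of histone H3, the residue that is acetylated at active promoters and enhancers (H3K27Ac), so the same residue cannot carry both marks. PRC1 ubiquitinates histone H2A, and PR-DUB, in which ASXL1 activates the deubiquitinase BAP1, removes that ubiquitin. In myeloid leukemia the complexes are best known for loss-of-function mutations of EZH2, for mutations of ASXL1 and for BMI1, which sustains self-renewal of leukemic cells. H3K4me3 marks active promoters.

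The H3K27Ac lists held 327715 (sgNeg) and 317059 (sgNpm1A) peaks on GRCh37, and the H3K4me3 lists 353628 and 106641 peaks on GRCh38. Median widths were 358 and 415 bp for H3K27Ac and 192 and 407 bp for H3K4me3. The narrowest peaks were 110 and 140 bp for H3K27Ac and 110 and 245 bp for H3K4me3, so widths had unlike floors between the guides. No read totals came with the lists. The background that could be recovered from the H3K4me3 fold values was 3.81 fragments over a base in sgNeg and 2.93 in sgNpm1A, and no H3K4me3 peak had fewer than 11 or 10 fragments at its summit. The deposited names of the H3K27Ac lists carry the tag OCI2 and those of the H3K4me3 lists OCI3, and no source used here says what the tags mean. All labels name OCI-AML3, but the study also used OCI-AML2, a line with wild-type NPM1 into which mtNPM1 was knocked in. Were OCI2 that line, the 2 marks at a gene would come from different lines, and the H3K27Ac lists would not compare guides in OCI-AML3. The labels and lists do not settle this. Of 8 myeloid blast markers, 7 had a promoter H3K27Ac peak in sgNeg (KIT had none) and 6 in sgNpm1A (CEBPA and LYZ had none), and their median percentile was 96.9 and 53.9. A H3K4me3 peak lay at 6 of the 8 in sgNeg (KIT and LYZ had none) and at 0 in sgNpm1A. Of 10 markers of other lineages, 8 had a H3K27Ac peak in sgNeg and 7 in sgNpm1A, at percentiles of up to 93.1 and 98.1. A H3K4me3 peak lay at 1 of these 10 in sgNeg (CD3E, percentile 72.7) and at 3 in sgNpm1A (CD3D, EPCAM and KRT19, percentiles 9.84 to 92.6), and these genes were named after their values were seen. Over all protein-coding genes, a promoter H3K27Ac peak was present at 79.2% in sgNeg and 57.1% in sgNpm1A. For H3K4me3 these shares were 67.5% and 9.17%. The presence of a H3K27Ac peak alone therefore says little about lineage. The part of the marker differences in the values of the Polycomb genes was not tested.

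The promoters of the 9 genes were mostly rich in CG dinucleotides. RefSeq promoter windows of GRCh38 were found for all 9, and the 250 bases before the start held a median of 34 CG and 72.8% G+C, against 17 CG and 62.4% over 13819 promoters. EED was the exception, with 11 CG and 51.2% G+C. The promoters of 5 genes are printed 5′ to 3′ on the coding strand, with capitals for the motifs found among those searched on both strands, overlaps allowed. EZH2 (chr7:148884292-148884541, minus strand) is shown because its peaks were the highest of the 9, EED (chr11:86244503-86244752, plus) as the promoter with the fewest CG, and SUZ12 (chr17:31936757-31937006, plus) because its start has a near copy in the genome. JARID2 (chr6:15245819-15246068, plus) had the widest peaks, and RNF2 (chr1:185045308-185045557, plus) had H3K4me3 that was high and H3K27Ac that was low among the 9.
EZH2: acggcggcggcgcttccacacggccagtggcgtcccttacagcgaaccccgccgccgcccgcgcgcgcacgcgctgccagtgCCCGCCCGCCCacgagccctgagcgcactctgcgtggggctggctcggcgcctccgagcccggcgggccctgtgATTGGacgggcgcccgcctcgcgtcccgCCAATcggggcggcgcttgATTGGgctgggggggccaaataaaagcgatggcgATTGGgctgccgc
EED: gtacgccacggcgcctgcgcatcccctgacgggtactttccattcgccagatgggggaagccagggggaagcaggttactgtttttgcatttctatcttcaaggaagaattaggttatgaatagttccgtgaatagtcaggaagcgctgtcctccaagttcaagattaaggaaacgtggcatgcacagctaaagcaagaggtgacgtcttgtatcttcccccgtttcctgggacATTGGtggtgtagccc
SUZ12: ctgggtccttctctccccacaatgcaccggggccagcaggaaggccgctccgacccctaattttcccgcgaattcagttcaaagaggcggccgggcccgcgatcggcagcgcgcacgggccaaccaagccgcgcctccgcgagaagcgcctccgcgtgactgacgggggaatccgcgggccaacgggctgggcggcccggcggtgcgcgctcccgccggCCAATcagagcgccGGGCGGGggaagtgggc
JARID2: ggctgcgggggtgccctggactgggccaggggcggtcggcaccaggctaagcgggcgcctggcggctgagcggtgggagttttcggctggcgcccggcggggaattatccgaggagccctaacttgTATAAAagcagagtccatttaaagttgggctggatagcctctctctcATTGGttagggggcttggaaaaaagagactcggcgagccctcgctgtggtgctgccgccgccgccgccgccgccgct
RNF2: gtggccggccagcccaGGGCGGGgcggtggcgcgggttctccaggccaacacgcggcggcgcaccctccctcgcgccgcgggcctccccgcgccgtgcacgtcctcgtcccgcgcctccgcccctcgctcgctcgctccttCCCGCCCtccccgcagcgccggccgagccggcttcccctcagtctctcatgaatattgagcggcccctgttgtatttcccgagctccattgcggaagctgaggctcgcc

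CCAAT, the word bound by NF-Y, was present in EZH2 (4 matches), EED, SUZ12 and JARID2 (1 each), that is in 4 of 9 windows against 35.2% of all promoters. GGGCGGG, the SP/KLF word, was present in EZH1, EZH2, SUZ12, BMI1, RING1 and RNF2, against 42.5% of all. JARID2 alone among the 9 held TATAAA, which 9.63% of promoters hold. TTTCGCGC or TTTGGCGC (E2F, 1.43% of all promoters), the NRF1 palindrome (1.55%), CCGGAAGT (ETS, 5.33%) and AAGATGG (YY1, 3.49%) were in none of the 9 windows. A match describes letters in this window and not binding.

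Peaks within 1 kb of an annotated transcript start were counted as promoter peaks, and where a gene had several the one of highest fold enrichment was taken. Fold enrichment is the authors' ratio of observed to expected pileup. Because it is scaled within each list, the percentile of a peak in its own list was compared between guides, with 0 for no peak.

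All 9 genes had a promoter H3K27Ac peak in sgNeg, as did 79.2% of protein-coding genes. In sgNpm1A 6 of 9 had one, against 57.1% of genes, and the genes without were SUZ12, BMI1 and RNF2. In sgNeg 9 of 9 genes reached the 95th percentile of the list, against 45.2% of all. In each of the 6 genes with one, the highest sgNpm1A promoter peak lay at a start of another annotated transcript. Differences at any start thus set a sgNeg peak at the main start against a sgNpm1A peak elsewhere. At EZH1 and JARID2 a weaker sgNeg promoter peak overlapped this sgNpm1A peak. Its percentiles were 54.5 and 16.3, against 43.8 and 13.2 in sgNpm1A. At EZH2, EED, RING1 and ASXL1 no sgNeg promoter peak did. Within 1 kb of the main start, that of the MANE Select transcript, 9 of 9 genes had a H3K27Ac peak in sgNeg (72.2% of 18921 genes with such a start) and 0 of 9 in sgNpm1A (32.5%). In cells, fewer alleles that carry a mark and less of the mark on each cannot be told apart.

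For H3K4me3 the guides were split at all 9 genes, as they were for H3K27Ac at the main start. The genes had 1 to 3 RefSeq starts each for H3K4me3 and 2 to 24 annotated starts for H3K27Ac. Counts at any start are therefore not alike between the marks. A promoter peak was listed for 9 of 9 in sgNeg, against 67.5% of genes, and for 0 of 9 in sgNpm1A, against 9.17%. In sgNeg 8 of 9 reached the 95th percentile, against 41.6% of genes, with RING1 below it. Few promoters of any kind had a H3K4me3 peak in the sgNpm1A list.

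**Figure D1:**
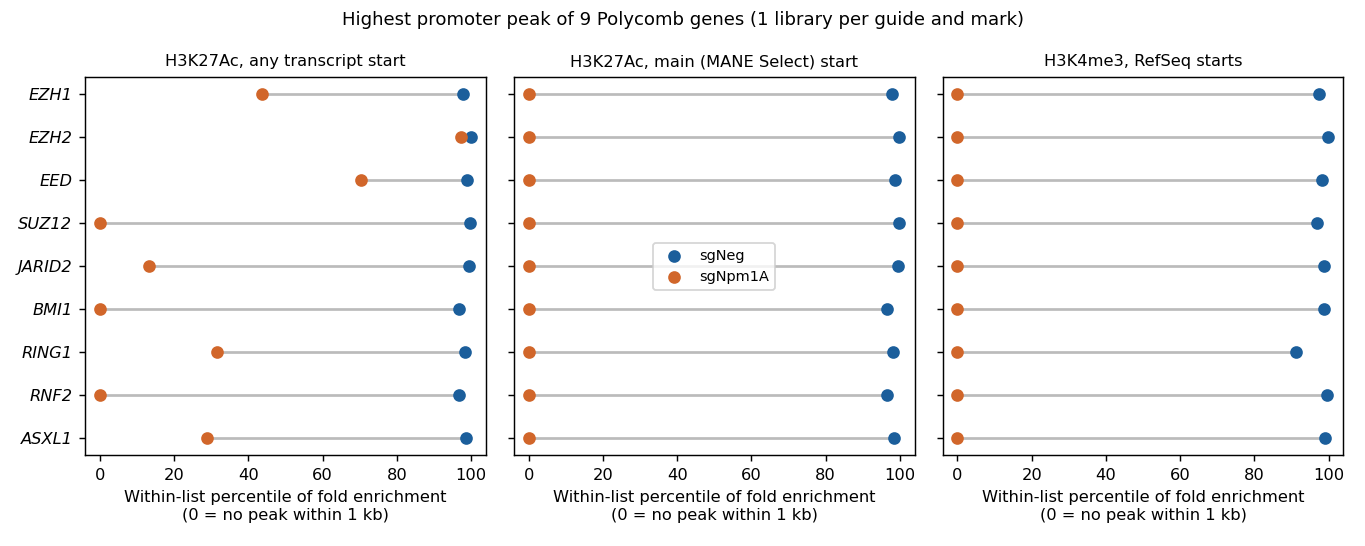
Within-list percentile of fold enrichment (x axis, 0 for no peak) of the highest promoter peak of each gene (rows), for H3K27Ac at any transcript start, H3K27Ac at the main start and H3K4me3; 1 point per library, blue for sgNeg and orange for sgNpm1A. The sgNeg points lie between 91.3 and 99.9, and the sgNpm1A points lie at 0 for all 9 genes in the second and last panels.

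EZH2, the main methyltransferase subunit of PRC2 in dividing cells, had the highest promoter peaks of the 9 for both marks. In sgNeg the H3K27Ac peak (chromosome 7, 148580321 to 148582615, GRCh37) was 2295 bp wide and ranked 288 of 327715 with a fold enrichment of 8.95 (q-value 6.34e-21). The H3K4me3 peak (148883018 to 148884320, GRCh38) was 1303 bp wide with a fold enrichment of 13.9 and ranked 227 of 353628. It covered the start beside the CCAAT-rich window printed above. In sgNpm1A no H3K4me3 peak was listed within 8262 bp of the start. The sgNpm1A H3K27Ac list had a peak of 1022 bp with a fold of 3.89 (q-value 0.000209, percentile 97.2), the highest of any of the 9 genes in that list, but 71051 bp into the gene at an internal transcript start. The nearest sgNpm1A H3K27Ac peak to the main start of EZH2 was 2579 bp away.

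EZH1, the alternative methyltransferase of PRC2, had lower promoter peaks. In sgNeg its H3K27Ac peak at the main start was 671 bp wide with a fold of 4.67 (percentile 97.8, rank 7288), and its H3K4me3 peak was 664 bp wide with a fold of 6.24 (percentile 97.4). In sgNpm1A the highest promoter H3K27Ac peak had a fold of 2.89 (percentile 43.8) and lay 42247 bp from the main start, near the end of the gene. A further sgNeg H3K27Ac peak, 64.5 kb past the EZH1 start and downstream of the gene, was 7308 bp wide with a fold of 4.30. It reached 254 bp into the EZH1 window and otherwise lay beyond it. No other coding gene that starts inside the window had its start within 1 kb of this peak. Gene starts under its larger part, beyond the window, are not described here.

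EED, the subunit that binds trimethylated K27 of histone H3 and stimulates the enzyme, had its sgNeg H3K27Ac peak of 2089 bp at the main start (fold 5.55, percentile 98.8, rank 3863). The H3K4me3 peak was 719 bp wide with a fold of 7.28 (percentile 98.3). These percentiles lay among those of the other members although its promoter had the fewest CG of the 9. In sgNpm1A the one promoter H3K27Ac peak was 228 bp wide with a fold of 3.12 (percentile 70.2), at -44488 bp from the main start, by the start of a longer annotated transcript.

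SUZ12, the core subunit on which PRC2 assembles, had a narrow and high sgNeg H3K27Ac peak of 428 bp that began 94 bp past the start (fold 7.79, percentile 99.8, rank 692), with a second peak within 1 kb. Its H3K4me3 peak was 159 bp wide, the narrowest of the 9, with a fold of 5.82 (percentile 96.8). In sgNpm1A no peak of either mark was within 1 kb of a start, and the nearest were 19952 bp (H3K27Ac) and 138540 bp (H3K4me3) away. Reads at this start are hard to place. Of the 24-base words within 1 kb of the SUZ12 start, 38.3% occurred at 1 place in the genome, against 84.9% to 100% at the other 8 starts, and 1732 bases aligned with 95.4% identity to the pseudogene SUZ12P1 (chromosome 17, 29058904 to 29103420, GRCh37). Widths and folds at SUZ12 are therefore uncertain in all 4 lists.

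JARID2, which joins PRC2 and helps bring it to chromatin, had the widest promoter peaks of the 9. In sgNeg the H3K27Ac peak (chromosome 6, 15244540 to 15249474) was 4935 bp wide with a fold of 6.67 (percentile 99.5), rank 3934 by width. The H3K4me3 peak was 2101 bp wide (rank 541 by width) with a fold of 8.11 (percentile 98.8), and it began 93 bp past the start. In sgNpm1A the promoter H3K27Ac peak was 366 bp wide with a fold of 2.71 (percentile 13.2) and lay 254168 bp into the gene. The nearest sgNpm1A peaks to the main start were 19604 bp away for H3K27Ac and 130031 bp for H3K4me3.

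**Figure D2:**
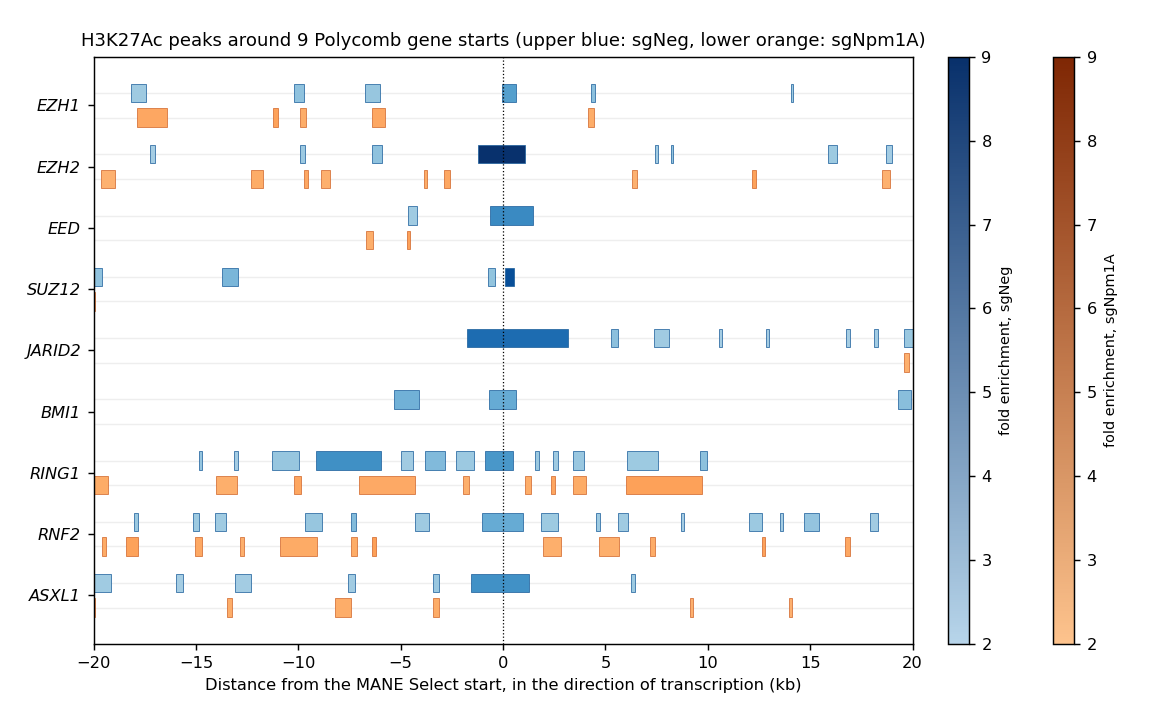
H3K27Ac peaks within 20 kb of the main start of each gene (x axis, kb in the direction of transcription), sgNeg above in blue and sgNpm1A below in orange, with darker shades for higher fold enrichment. The start lies under a sgNeg peak for 8 genes and 94 bp before one for SUZ12, and under no sgNpm1A peak for any of the 9; 67 sgNeg and 45 sgNpm1A peaks are drawn.

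BMI1, a RING-finger partner that stimulates the PRC1 ubiquitin ligase, had the lowest H3K27Ac percentile of the 9 in sgNeg, 96.7, with a peak of 1331 bp and a fold of 4.13 (rank 10957, q-value 2.55e-05). Its H3K4me3 peak was 1002 bp wide with a fold of 7.90 (percentile 98.7). Neither mark had a promoter peak in sgNpm1A, and the nearest peaks to the start were 25806 and 100853 bp away. A sgNeg H3K27Ac peak of 1257 bp (fold 3.88) lay 4.09 kb upstream, at the starts of COMMD3 and of the COMMD3-BMI1 readthrough gene.

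RNF2 (RING1B), the main catalytic subunit of PRC1, was close to BMI1 for H3K27Ac and second to EZH2 for H3K4me3. In sgNeg its H3K27Ac peak was 2009 bp wide with a fold of 4.14 (percentile 96.7, rank 10892), and its H3K4me3 peak was 1249 bp wide with a fold of 11.0 (percentile 99.7, rank 1072). No promoter peak of either mark was listed in sgNpm1A. The nearest sgNpm1A peaks lay closer than at most of the other genes, 1963 bp away for H3K27Ac and 2363 bp for H3K4me3. The widest peak of the RNF2 window was intronic in both H3K27Ac lists, 28.4 kb past the start in sgNeg (2143 bp, fold 2.90) and 28.5 kb in sgNpm1A (2027 bp, fold 3.06).

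RING1 (RING1A), the paralogous catalytic subunit, had a sgNeg H3K27Ac peak of 1381 bp over its start (fold 5.03, percentile 98.3, rank 5621). Its H3K4me3 peak of 728 bp had the lowest fold of the 9, 4.58 (percentile 91.3, rank 26994). In sgNpm1A a H3K27Ac peak of 288 bp (fold 2.82, percentile 31.6) lay 1086 bp past the main start and 26 bp from the start of another transcript, which made it the nearest of any gene of the 9. No H3K4me3 peak was within 6219 bp. The highest peaks of the RING1 window in sgNeg were not its own: a H3K27Ac peak of 3197 bp (fold 5.32) and a H3K4me3 peak of 1343 bp (fold 7.28) lay near 6 kb upstream, at the starts of RXRB and SLC39A7.

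ASXL1, often mutated in myeloid neoplasms, had a sgNeg H3K27Ac peak of 2846 bp (fold 5.26, percentile 98.5, rank 4772) and a H3K4me3 peak of 1268 bp (fold 8.94, percentile 99.1, rank 2871). In sgNpm1A the highest promoter H3K27Ac peak was 307 bp wide with a fold of 2.80 (percentile 28.8) and lay 73353 bp from the main start. An intronic sgNpm1A H3K27Ac peak 48.3 kb into the gene stood higher, with a fold of 3.79 and a percentile of 96.3. The nearest sgNpm1A H3K4me3 peak to the start was 87850 bp away.

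**Figure D3:**
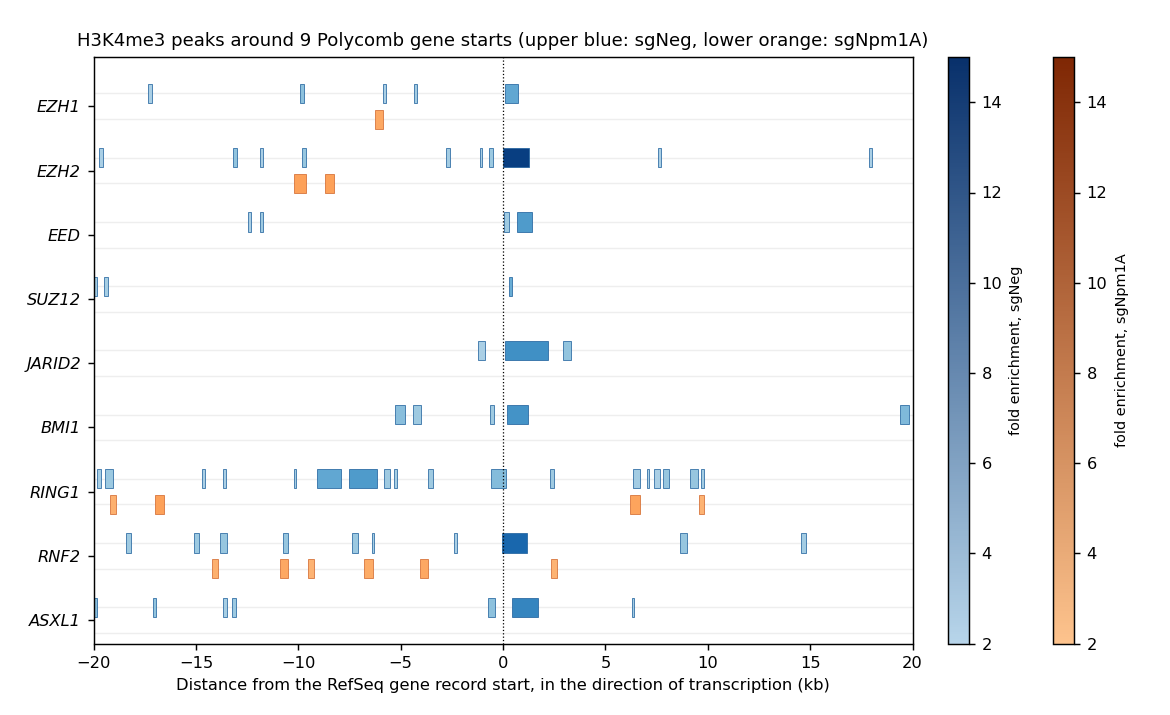
H3K4me3 peaks within 20 kb of the start of each gene record (x axis, kb in the direction of transcription), sgNeg above in blue and sgNpm1A below in orange, with darker shades for higher fold enrichment. Of 65 sgNeg and 13 sgNpm1A peaks drawn, no sgNpm1A peak is nearer to a start than 2363 bp.

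The depth behind the H3K4me3 peaks was given by the number of fragments over the summit. In sgNeg EZH2 had 66 fragments (exact Poisson 95% interval 51.0 to 84.0), RNF2 52 (38.8 to 68.2) and RING1, the fewest, 21 (13.0 to 32.1). The other 6 genes had 27 to 42. Intervals cover counting error only. Multiplied by the ratio of the backgrounds of sgNpm1A and sgNeg, 0.770, the counts would be 50.8 for EZH2 (scaled interval 39.3 to 64.6), 40.0 for RNF2 (29.9 to 52.5) and 16.2 for RING1, against the 10 fragments of the weakest sgNpm1A peak. The lower end of the scaled RING1 interval reached those 10 fragments. The scaling takes the recovered backgrounds as the measure of depth, and the part of depth in the missing sgNpm1A peaks was not tested. No counts per peak were recovered for H3K27Ac, whose values are means over broad peaks.

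**Figure D4:**
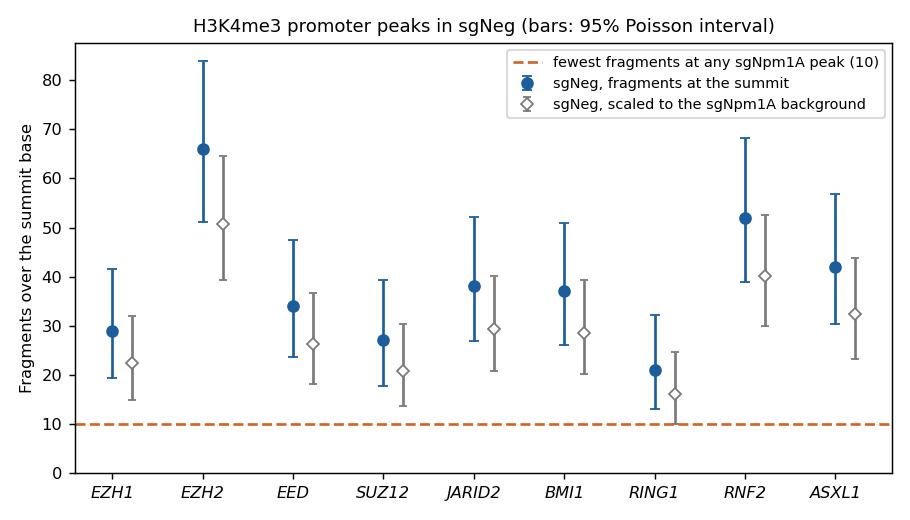
Fragments over the summit base (y axis) of the H3K4me3 promoter peak of each gene in the sgNeg library, with exact Poisson 95% intervals for counting error, and the same counts and intervals scaled to the background of the sgNpm1A library (open diamonds). The diamonds run from 16.2 at RING1, whose interval reaches down to the dashed line at 10 fragments, to 50.8 at EZH2.

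The promoters of the 9 genes were next read against those of all genes. Over the 9, the median H3K27Ac percentile at any start was 98.5 in sgNeg and 28.8 in sgNpm1A, and the median of the differences (sgNpm1A minus sgNeg) was -69.8, against -17.5 over all genes and -35.4 over the genes with a sgNeg peak. All 9 were lower in sgNpm1A, as were 82.9% of genes with a sgNeg peak. The 9 started from high percentiles, and the 7482 genes within their sgNeg range had a median difference of -68.5 and a sgNpm1A peak in 59.3% of cases. For H3K4me3 the median difference was -98.7 for the 9 and -98.3 for the 8987 genes within their range, of which 5.60% had a sgNpm1A peak. With 0 for no peak, these H3K4me3 differences mostly restate the sgNeg percentiles by which the genes were chosen, so their likeness was set in advance. For H3K27Ac at any start, the median difference of the 9 lay near that of genes of like sgNeg percentile. At the main start, 26.3% of 6653 genes of like percentile had a sgNpm1A H3K27Ac peak, against 0 of the 9.

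Peaks at a stricter q-value were counted next. A promoter H3K27Ac peak with a q-value under 1e-05 was present in sgNeg at 7 of 9 genes (BMI1 and RNF2 had none), against 35.6% of genes, and in sgNpm1A at 0 of 9, against 0.904%. For H3K4me3 such a peak was present at 9 of 9 genes in sgNeg, against 52.7%, and at 0 of 9 in sgNpm1A, against 1.56%. The nearest sgNpm1A H3K27Ac peak was a median of 4133 bp from the main start for the 9 genes and 2211 bp for all. For H3K4me3 these medians were 39486 and 14902 bp.

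Over the whole windows, promoter peaks included, the genes differed among themselves. H3K27Ac covered less of the window in sgNpm1A at 7 of 9 genes, against 63.5% of all genes. In EED it covered 7.40% of the window in sgNeg and 2.37% in sgNpm1A, in SUZ12 3.15% and 0.0471%, in JARID2 19.9% and 4.86%, and in BMI1 6.64% and 0.901%. In these 4 genes the ratio of sgNpm1A to sgNeg was between 0.0150 and 0.320. The lowest ratio was that of SUZ12, with 49 bp under a sgNpm1A peak. In its window 45.2% of 24-base words occurred at 1 place in the genome, against 72.1% to 94.5% in the other windows, so its shares are uncertain. In RING1 (26.2% and 23.0%), RNF2 (17.1% and 14.5%) and ASXL1 (14.0% and 12.1%) the ratio was 0.848 to 0.877. EZH2 was covered alike, 13.0% and 13.1%, and EZH1 more in sgNpm1A, 10.2% and 14.1%, although both lacked a sgNpm1A peak at the main start.

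Summed over the 9 windows, H3K27Ac peaks covered 147.0 kb in sgNeg and 84.8 kb in sgNpm1A, a ratio of 0.577, against 0.742 over all gene windows. JARID2 is the longest window, 316.0 kb of 1052 kb, and without it the ratio was 0.824, on the other side of that of all genes. The JARID2 window held 86 sgNeg and 39 sgNpm1A peaks. The lists also marked different bases. In the EZH2 window, where the covered shares were alike, the bases under peaks of both lists were at most 27.4% of those in either list, and over the 9 windows they were 21.5% of those in sgNeg and 37.3% of those in sgNpm1A. In these windows 227 sgNeg and 152 sgNpm1A H3K27Ac peaks were counted, and none of the latter had a q-value under 1e-05.

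H3K4me3 covered less of the window in sgNpm1A at 9 of 9 genes, against 87.7% of all genes. Peaks numbered 157 in sgNeg and 30 in sgNpm1A, and their summed covered length had a ratio of sgNpm1A to sgNeg of 0.258 against 0.513 over all gene windows (0.264 without JARID2). Sums give more weight to long windows. The median covered share was 4.99% in sgNeg and 1.04% in sgNpm1A for the 9, and 3.71% and 1.01% over all genes. Genes of like sgNeg coverage were not compared. RNF2 had the largest covered share in sgNpm1A of the 9, 3.71% (5.94% in sgNeg), and held 9 of the 30 sgNpm1A peaks. RING1 had 15.6% and 3.41%, and in SUZ12 and BMI1 no sgNpm1A peak was listed in the window. A sgNpm1A peak with a q-value under 1e-05 was present in the EZH1 window alone, where a peak of 360 bp with 17 fragments (fold 4.58) lay 57.0 kb past the start, outside the gene.

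**Figure D5:**
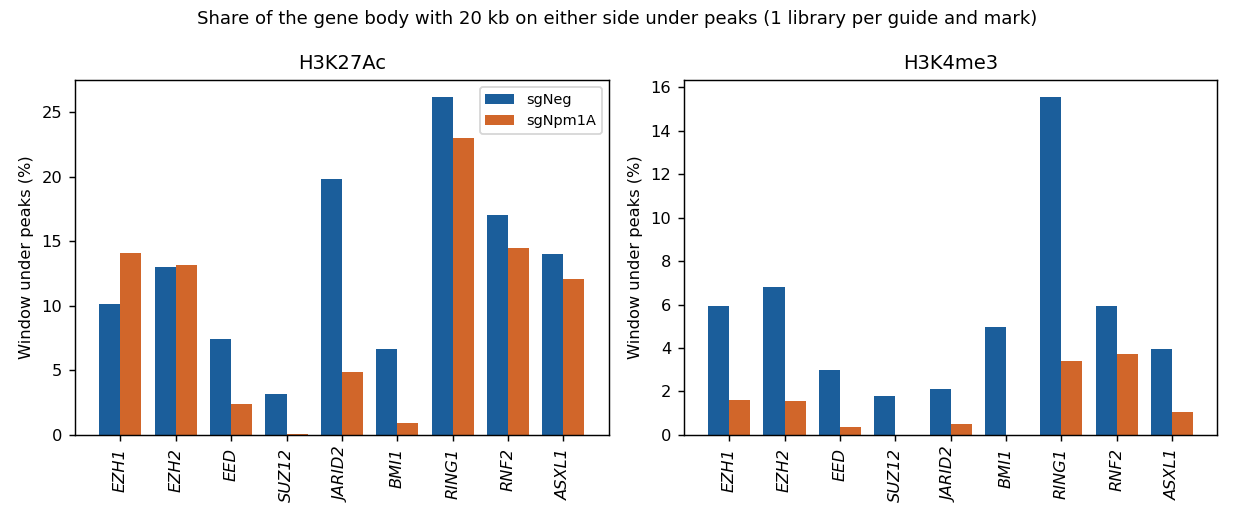
Share of the gene body with 20 kb on either side that lies under peaks (y axis, %), for each gene and guide, H3K27Ac on the left and H3K4me3 on the right, 1 library per bar. For H3K27Ac the share is lower in sgNpm1A at EED, SUZ12, JARID2 and BMI1, with ratios of 0.0150 to 0.320, and higher at EZH1, and for H3K4me3 it is lower in sgNpm1A at all 9 genes. Reads in the SUZ12 window are hard to place.

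The G+C content of the marked bases differed between the lists. Over the 9 windows it was 50.3% under sgNeg H3K27Ac peaks, 47.3% under sgNpm1A H3K27Ac peaks, 61.2% under the sgNeg peaks at the main starts and 41.8% under no peak. The sgNeg peak at the main start was richest at BMI1, 74.1%, and poorest at EED, 52.3%. The sgNpm1A list had no peak at any of the 9 main starts, so these values cannot be set against its peaks there. The part of base composition and fragment length in the difference between the libraries was not tested. Bases under peaks were mostly single in the genome, with 94.0% and 94.4% of 24-base words at 1 place under sgNeg and sgNpm1A peaks, against 75.9% under no peak.

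A wider list of 45 other Polycomb genes was described in the same way. For H3K27Ac 42 had a promoter peak in sgNeg and 24 in sgNpm1A, against 79.2% and 57.1% of all genes. The median difference in percentile was -65.3, with 41 lower in sgNpm1A. For H3K4me3 39 had a peak in sgNeg and 0 in sgNpm1A, against 67.5% and 9.17% of all genes, and the median difference was -97.7. At the main start, 37 of 43 had a H3K27Ac peak in sgNeg and 8 in sgNpm1A, where the 9 genes had 9 and 0. Among all genes with such a start the shares were 72.2% and 32.5%. One of the 8 was PHF19, a Polycomb-like PRC2 partner that reads methylated histone H3, with a percentile of 99.7 in sgNeg and 86.4 in sgNpm1A.

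By complex, the H3K27Ac promoter peaks of other PRC2 genes numbered 8 of 9 in sgNeg and 4 in sgNpm1A, those of canonical PRC1 9 and 6 of 10, of variant PRC1 13 and 7 of 14, and of PR-DUB 10 and 6 of 10. Both H3K27 demethylase genes had one in sgNeg and 1 of them in sgNpm1A. Over all genes, 79.2% had one in sgNeg and 57.1% in sgNpm1A. The highest H3K27Ac percentiles in sgNeg were those of ASXL2, the ASXL1 paralog, with 99.9 (fold 9.24) and no sgNpm1A peak, the deubiquitinase gene USP7 with 99.8 and PHF19. For H3K4me3 the highest included FOXK2 with 99.9 (fold 12.9) and FOXK1 with 99.8. Percentiles of at least 95 in sgNpm1A H3K27Ac were reached by FOXK2 (96.9) and KDM2B (96.3), which recruits variant PRC1 to CpG islands.

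The 4 promoter percentiles of each of the 9 genes were compared with those of the 45 by Euclidean distance. EZH2 lay nearest to FOXK2 (distance 0.547 percentile points), with which it shared a high sgNpm1A H3K27Ac peak away from the main start. RNF2 and BMI1 both lay nearest to CBX2, a chromodomain subunit of canonical PRC1 (0.821 for BMI1 and less for RNF2), EED to BAP1 (1.20) and SUZ12 to YAF2 (1.42). ASXL1 lay nearest to RBBP4 (1.55), RING1 to CBX8 (2.73), EZH1 to AEBP2 (4.63) and JARID2 to SCMH1 (6.25). These are likenesses over 4 values, each from 1 library. The H3K4me3 percentile in sgNpm1A was 0 for all 9 and all 45 genes, so it added nothing to any distance.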

How the data were processed

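Per the labels, chromatin of OCI-AML3 cells was immunoprecipitated with a H3K27Ac or H3K4me3 antibody and tagmented. The submitters' processing notes name bcl2fastq 2.17, Trimmomatic 0.33, Bowtie 1.1.2, MACS2 2.1.0, deepTools and hg38, with no role given. The authors deposited 1 peak list per library: in broad format for H3K27Ac and in narrow format for H3K4me3, with a fold enrichment (ratio to the expected pileup), −log10 p-value and −log10 q-value, and an integer display score, which was not used. The deposited coordinates are GRCh37 (H3K27Ac) and GRCh38 (H3K4me3), since peaks on chromosome 1 ended at 249218478 and on chromosome 17 at 83201880. No coordinates were converted. The calling limit and the use of inputs are not given in the sources used here. The weakest q-value listed was 0.0707 in sgNeg and 0.0437 in sgNpm1A for H3K27Ac, and 0.0308 and 0.0226 for H3K4me3. By q-value, counts of presence and covered lengths without a stricter limit therefore admit weaker peaks in sgNeg.

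Python 3.11.15 (pandas 2.3.3, numpy 2.4.6, scipy 1.17.1) was used, an overlap was at least 1 bp, and interval functions were tested on simulated data and checked against bedtools 2.31.1. Starts were those of GENCODE 44 mapped to GRCh37 and, for H3K4me3, of RefSeq (15842 genes from promoter windows, 3824 from the gene record). H3K4me3 fragments at a summit were solved from (pileup + 1)/(background + 1), which gave whole numbers for 100% of peaks within 0.01. Groups came from sample titles, and with 1 library per group no test was made. Alternatives were stricter q-values, 20000 peaks of the lowest p-values, a promoter of 500 bp, an overlap of 200 bp, other starts and a flank of 5 kb. The MANE Select start was chosen after seeing the data.

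The members, the wider Polycomb list and the markers were chosen with earlier results of these data known. From the wider list, genes were named if among the 3 highest sgNeg percentiles of a mark, at or above the 95th percentile or with H3K4me3 in sgNpm1A, or nearest to a member. A result for 1 gene that this rule names is not reported here. Markers were named where a peak was missing, and neighbors where their start lay under a named peak. Peaks named outside promoters are the highest, the second highest or the widest of their window.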

Additional observations from a re-analysis of the deposited data

How the results depend on the processing

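Of 47 alternative values, 38 kept their direction and stayed within 1.5 times of the reported value, 9 moved further and 0 reversed. Among the 38, the median H3K27Ac difference of -69.8 still ran from -98.5 at the MANE Select start and -98.3 at the start of the gene record to -49.4 at a q-value under 1e-05, and the H3K4me3 median of -98.7 from -98.7 to -76.7. The count of 6 genes with a promoter H3K27Ac peak in sgNpm1A was the least stable. It was 2 at a q-value under 0.01, 0 at a q-value under 1e-05, 1 with the best 20000 peaks by p-value, 1 at the start of the gene record and 0 at the MANE Select start, an alternative chosen after seeing the data. The ratio of covered length for H3K27Ac, 0.577, was 0 at a q-value under 1e-05 and 0.0805 with the best 20000 peaks. For H3K4me3 the ratio of 0.258 was 0.0197 and 0.0280 under the same settings. Fewer peaks enter under these settings by their construction. Under the alternatives tried, genes with a promoter peak in sgNeg numbered 7 to 9 for H3K27Ac and 8 to 9 for H3K4me3. Genes with a H3K4me3 promoter peak in sgNpm1A numbered 0 throughout. The alternatives for that count only remove peaks or starts, so its 0 could not change. These forced values are among the 38. No paired analysis was possible because each guide and mark had 1 library and the labels give no replicate number. No result could be recomputed without a replicate for the same reason. Depth limits the H3K4me3 comparison to promoters with at least 10 fragments in sgNpm1A, and for H3K27Ac it is unknown.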
